A study of Rattus norvegicus with 40 samples.

Results

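Gstp1, Ggt1, Aldh3a1, Akr7a3, Akr1b10 and Ephx1 encode enzymes that have classically been used to mark preneoplastic foci in rat liver. They were taken from the count files by symbol, and all 6 were found among the 17337 genes counted. RNA of 40 libraries from 24 Fischer 344 males, aged 7 weeks at the start, had been sequenced. Rats received diethylnitrosamine (DEN), an alkylating liver carcinogen, by intraperitoneal injection of 50 mg/kg each week for 8 weeks (DEN08) or 14 weeks (DEN14), or for 14 weeks and then none for 6 weeks (DEN20). Untreated rats of the same age were the controls at 8, 14 and 20 weeks (NOD08, NOD14 and NOD20). Non-tumor liver (NT) was taken from 4 rats per group, and at 14 and 20 weeks 2 nodules (T) were taken from each of the same rats. Pieces of whole tissue were sequenced, so fewer cells of a type and less RNA per cell cannot be told apart. Counted read pairs ranged from 20528515 to 160622633 per library, with the NT liver of rat H26 at 4.08 times the next deepest. The 4 rats whose number starts with F (F03, F06, F09 and F10) were all given DEN, so the letter, which the labels do not explain, has no controls of its own.

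A hepatocyte that escapes the toxicity of a carcinogen and grows into a focus of altered cells changes how it handles drugs. Enzymes that activate xenobiotics tend to be low in such foci, and enzymes that conjugate, oxidize or hydrolyse reactive products tend to be high. Gstp1, the Pi-class glutathione S-transferase and the placental form (GST-P) of the rat, couples glutathione to electrophiles and is hardly made by normal rat hepatocytes. Ggt1, γ-glutamyltransferase, opens glutathione and its conjugates outside the cell. Both are also made by normal bile duct epithelium. Aldh3a1 oxidizes aromatic and lipid-derived aldehydes, Akr7a3 reduces aflatoxin dialdehyde, Akr1b10 reduces retinal and other aldehydes, and Ephx1, microsomal epoxide hydrolase, opens epoxides. NRF2, a bZIP factor that answers to electrophiles, and AP-1, the dimers of the Jun and Fos families, bind related DNA elements in the regulatory regions of several of these genes.

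The 250 bases upstream of the RefSeq start (rat build GRCr8) are shown for the enzymes in which the AP-1 letters were found, because a known enhancer of rat Gstp1 has such an element, and for Akr7a3, where those letters are absent. Capitals mark TGACTCA (AP-1), TGACNNNGC (antioxidant element) or GCGTG (core of the xenobiotic element bound by the aryl hydrocarbon receptor, AhR) on either strand. The windows are Gstp1 at chr1:210769706-210769955 on the minus strand, the second listed start of Ephx1 at chr13:95263118-95263367 on the minus strand, and Akr7a3 at chr5:156876471-156876720 on the plus strand.
Gstp1: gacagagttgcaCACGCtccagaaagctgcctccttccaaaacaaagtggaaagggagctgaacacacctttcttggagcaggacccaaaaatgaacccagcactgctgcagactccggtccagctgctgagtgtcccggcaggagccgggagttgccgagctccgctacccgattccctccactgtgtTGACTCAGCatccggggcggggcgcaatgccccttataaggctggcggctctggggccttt
Ephx1: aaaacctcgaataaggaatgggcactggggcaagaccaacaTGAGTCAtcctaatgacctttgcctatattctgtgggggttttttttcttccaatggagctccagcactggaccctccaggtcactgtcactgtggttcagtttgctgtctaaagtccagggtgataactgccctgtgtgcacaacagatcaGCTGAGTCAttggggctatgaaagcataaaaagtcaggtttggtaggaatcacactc
Akr7a3: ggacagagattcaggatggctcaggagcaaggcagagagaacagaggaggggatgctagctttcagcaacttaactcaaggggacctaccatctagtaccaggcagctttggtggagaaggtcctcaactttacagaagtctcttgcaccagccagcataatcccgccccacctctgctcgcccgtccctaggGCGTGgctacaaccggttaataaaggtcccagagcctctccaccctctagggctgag

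In Gstp1 the AP-1 letters lie 61 to 55 bases before the start and overlap the antioxidant letters, which run to base 53. The second Ephx1 start has the AP-1 letters at 2 places on the minus strand, the nearer of which again overlaps the antioxidant letters. TGACTCA was found in 4.05% of all 33469 windows of this length in the table, TGACNNNGC in 10.1% and GCGTG in 25.9%. Of the other windows, the Akr1b10 one has GCGTG at 11 to 7 bases before the start, and those of Ggt1 and of the other Ephx1 start hold none of the 3. A match is a run of letters and not a measured binding site. The windows were matched by gene symbol, since the counts were made on an earlier build (rn6).

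Gstp1 was at a low level in untreated liver and had a mean more than 100 times higher in every DEN group of weeks 14 and 20. Its CPM (the count on the gene scaled to the depth of the library, with library totals corrected by TMM) was 17.5, 8.13, 8.72 and 11.4 in the 4 NOD08 livers, 7.76, 8.88, 10.8 and 9.50 in NOD14, and 11.4, 8.06, 7.43 and 8.47 in NOD20. After 8 weeks of DEN it was 83.6, 72.9, 95.5 and 318 in NT liver, and after 14 weeks 506, 1901, 1980 and 1257. All DEN libraries were thus above all untreated ones, and rat H18 stood apart at 8 weeks and rat F06 was lowest at 14 weeks. The share of all genes with such a separation was not computed, here or for the other enzymes. In DEN20NT the values were 590, 561, 1217 and 1358, with no injection for 6 weeks. The 8 nodules ranged from 1243 to 3569 at 14 weeks, with a median of 2454, and from 775 to 4553 at 20 weeks, with a median of 2612. The lowest DEN14T nodule lay 115 times above the highest NOD14 liver.

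**Figure D1:**
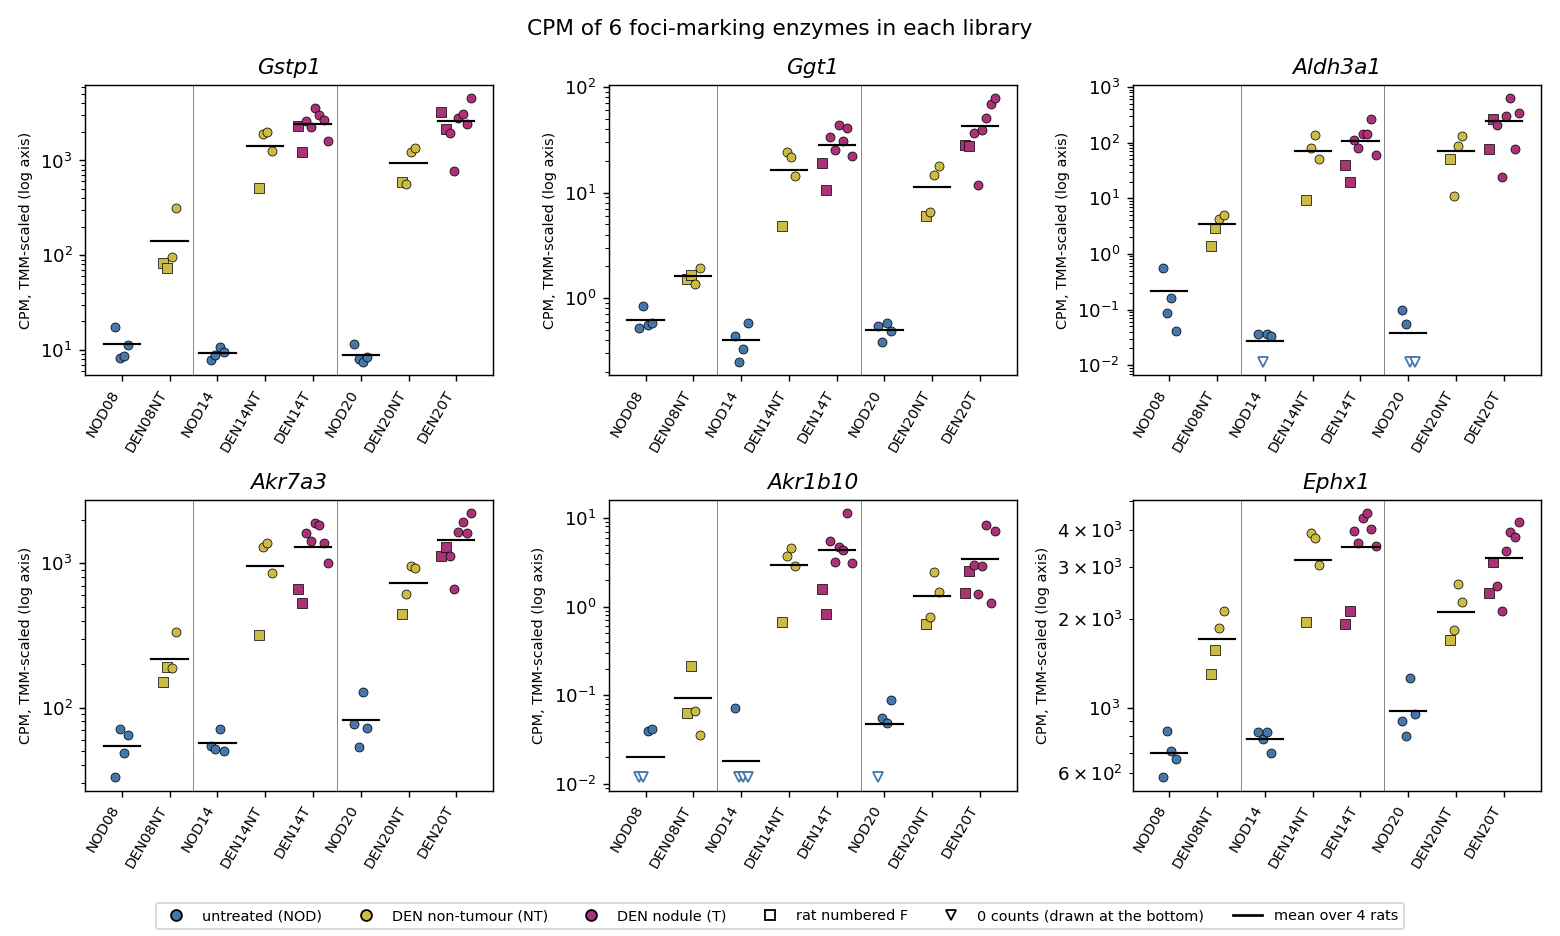
TMM-scaled CPM (log axis) of the 6 enzymes in each of the 40 libraries, by group; points are libraries, squares are rats numbered F, open triangles are libraries with 0 counts drawn at the bottom, and bars are means over 4 rats. Every DEN library lies above every untreated library of its week in each panel, except for Akr1b10 at 8 weeks, where they overlap, and F06 is the lowest DEN14NT library in all 6 panels. The share of all genes separated in this way was not computed.

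Ggt1, scarcely detected in adult liver, was likewise higher in all DEN libraries than in all untreated ones. Its CPM was 0.516, 0.834, 0.560 and 0.585 in NOD08 and 1.53, 1.64, 1.35 and 1.93 in DEN08NT, a small step with no overlap. In NOD14 it was 0.437, 0.248, 0.330 and 0.581, against 4.86, 24.3, 21.7 and 14.3 in DEN14NT. In NOD20 it was 0.539, 0.386, 0.587 and 0.483, against 6.04, 6.54, 14.6 and 17.8 in DEN20NT. Nodules ranged from 10.5 to 43.4 CPM at 14 weeks (median 28.1) and from 11.7 to 78.3 CPM at 20 weeks (median 37.8), and both nodules of rat H28 were the highest of week 20.

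Aldh3a1 had the largest fitted change of the 6 in each comparison with untreated liver. It was at or next to 0 in the controls of weeks 14 and 20, with 1, 0, 1 and 1 counts in NOD14 and 2, 1, 0 and 0 counts in NOD20. A count of 0 allows up to 0.11 CPM on the TMM scale in a NOD14 library of median depth and 0.147 CPM in a NOD20 one (3 counts, counting error only). In NOD08 it had 13, 2, 4 and 1 counts, a CPM of 0.0418 to 0.559. NT liver reached 1.37, 2.98, 4.28 and 5.0 CPM in DEN08NT and 9.28, 81.6, 139 and 51.2 CPM in DEN14NT. At 20 weeks NT liver had 51.6, 10.8, 85.5 and 132 CPM. The nodules spread widely, from 19.6 to 268 CPM at 14 weeks (median 95.9) and from 24.3 to 633 CPM at 20 weeks (median 239).

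Akr7a3, which is expressed in untreated liver, had 32.8 to 70.4 CPM in NOD08, 50.1 to 70.8 in NOD14 and 53.3 to 128 in NOD20. Its NT levels were 150 to 334 CPM at 8 weeks, 320 to 1370 at 14 weeks and 443 to 963 at 20 weeks, and the nodules ranged from 527 to 1892 CPM and from 666 to 2210 CPM. Ephx1, already abundant in normal hepatocytes, showed the smallest steps, from 580 to 836 CPM in NOD08 to 1295 to 2128 CPM in DEN08NT, and from 701 to 829 CPM in NOD14 to 1955 to 3895 CPM in DEN14NT. At 20 weeks it had 800 to 1259 CPM in NOD20, 1700 to 2623 CPM in NT liver and 2119 to 4267 CPM in nodules. Akr1b10 had at most 2 counts in any untreated library and 1, 2, 2 and 7 counts in the DEN08NT livers, so its level before 14 weeks was at the limit of detection. It had 0.676 to 4.52 CPM in DEN14NT, 0.634 to 2.45 CPM in DEN20NT, 0.821 to 11.2 CPM in DEN14T and 1.11 to 8.26 CPM in DEN20T.

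By group means the 6 enzymes kept a common order, with the 3 untreated groups lowest, then DEN08NT, DEN20NT, DEN14NT and the nodule groups. For Gstp1 the means ± SD over 4 rats were 11.4 ± 4.28, 9.23 ± 1.25 and 8.84 ± 1.76 CPM in NOD08, NOD14 and NOD20, 142 ± 117 in DEN08NT, 932 ± 415 in DEN20NT, 1411 ± 685 in DEN14NT, 2413 ± 657 in DEN14T and 2621 ± 907 in DEN20T. Among the untreated groups, neighbours in the order of the means overlapped for every enzyme, although NOD08 and NOD14 did not overlap for Aldh3a1. DEN20NT overlapped with DEN14NT, and both nodule groups with each other, for every enzyme, so those steps were within the spread of the libraries. The nodules of a week overlapped with the NT liver of that week for every enzyme too, but these come from the same rats and are compared within rats further on. DEN08NT and DEN20NT overlapped for Ephx1 and not for the other enzymes. How many of all genes overlapped between groups was not computed. Levels are compared here within a gene and not between genes, because no transcript lengths of the annotation used were at hand.

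The fitted comparisons with untreated liver of the same week asked which enzymes rose before nodules were sampled and which remained high in them. In DEN08NT, 5 of the 5 enzymes that passed the filter on low counts were called higher (edgeR, log2 fold change of at least 1 and adjusted p of at most 0.01), where 7.29% of all 10812 genes tested were, and Akr1b10 was too low to be tested. In DEN14NT 6 of 6 were called higher, where 13.1% of 11016 genes were, and in DEN20NT 6 of 6, where 4.89% of 10827 genes were. With the thresholds used for nodules (0.5 and 0.05), 6 of 6 were called higher in DEN14T and 6 of 6 in DEN20T, where 23.9% and 23.6% of genes were. Without the rats numbered F the enzymes called were again 5, 6, 6, 6 and 6. NT liver and nodules of a week share their control livers, so these counts are not independent of each other.

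Gstp1 was 12.5 times its NOD08 mean in DEN08NT, a log2 fold change of 3.65 ± 0.55 (SE worked back from the F test of edgeR, adjusted p = 0.00147). Without rat H18 that value was 2.89 (adjusted p = 8.77e-05). The mean was 153 times NOD14 in DEN14NT (log2 7.28 ± 0.50, adjusted p = 2.13e-05) and 105 times NOD20 in DEN20NT (log2 6.73 ± 0.40, adjusted p = 0.000135). In nodules the log2 fold changes were 8.00 ± 0.26 at 14 weeks and 8.18 ± 0.38 at 20 weeks, 262 and 296 times the untreated means. By size of log2 fold change Gstp1 was number 22 of 10812 genes at 8 weeks and number 23 of 11016 in DEN14NT.

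Ggt1 rose by a log2 fold change of 1.37 ± 0.22 in DEN08NT (adjusted p = 0.0011, but 0.0672 and not called with all 8 groups in the fit), 5.34 ± 0.63 in DEN14NT (adjusted p = 0.000262) and 4.5 ± 0.47 in DEN20NT (adjusted p = 0.000534). In nodules it was 70.8 times the untreated mean at 14 weeks (log2 6.09 ± 0.37) and 85.5 times at 20 weeks (log2 6.36 ± 0.47). Akr7a3 rose by 2.0 ± 0.30, 4.10 ± 0.46 and 3.16 ± 0.36 on the log2 scale in NT liver at 8, 14 and 20 weeks, and by 4.49 ± 0.35 and 4.11 ± 0.35 in nodules. Ephx1 rose by 1.30 ± 0.16, 2.03 ± 0.20 and 1.12 ± 0.17 in NT liver, and by 2.14 ± 0.22 and 1.70 ± 0.21 in nodules. The largest adjusted p among these Akr7a3 and Ephx1 values was 0.00155, for Ephx1 in DEN20NT.

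Against controls that hold only a few counts, fitted fold changes of Aldh3a1 and Akr1b10 depend on the prior count, and the pooled count ratio with its 95% counting interval is given beside them. Aldh3a1 had 9384 counts in DEN14NT and 3 in NOD14, a depth-corrected ratio of 2487 (interval 851 to 12062) where the fit gave log2 11.13 ± 1.5 (adjusted p = 0.00068). In DEN20T it had 65942 counts against 3 in NOD20, a ratio of 6722 (2300 to 32598), with a fitted value of 12.61 ± 0.79 (adjusted p = 1.02e-05). Already at 8 weeks the 411 counts against 20 gave a ratio of 15.9 (10.2 to 26.3) and a fitted 3.99 ± 0.60 (adjusted p = 0.00102), which was 5.06 without control rat H05, the holder of 13 of those 20 counts. In DEN20NT its call, at an adjusted p of 0.00295, was lost without control rat H14, H15 or H16 (adjusted p = 0.0106, 0.011 and 0.013). Without control rat H13 its fitted value was 11.83 in DEN20NT and 13.66 in DEN20T.

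Akr1b10 had 402 counts in DEN14NT against 2 in NOD14, a ratio of 160 (interval 44.0 to 1324, fitted log2 7.06 ± 0.97, adjusted p = 0.000319). In DEN20NT the ratio was 38.5 (14.9 to 142, fitted 4.77 ± 0.72), with 397 of the 493 counts in the deep library of H26, and the ratio of the means over rats was 27.6. The pooled ratio was in DEN14T 248 (68.4 to 2047, fitted 7.67 ± 0.93) and in DEN20T 74.1 (28.8 to 272, fitted 6.10 ± 0.64). Both NOD14 counts were in rat H09, without which the fitted values were 9.52 in DEN14NT and 10.80 in DEN14T, and the DEN20NT value was 4.18 without rat H26. At 8 weeks 12 counts against 2 gave a ratio of 4.65, with an interval of 1.03 to 42.7, and the groups overlapped.

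**Figure D2:**
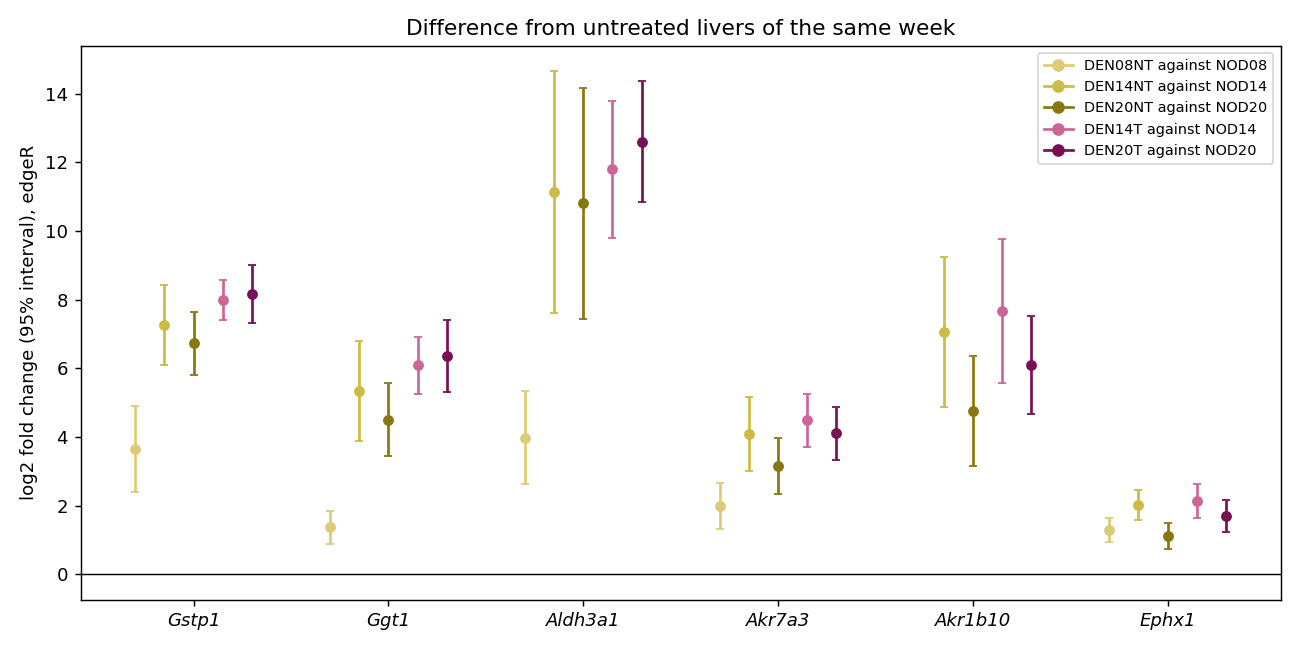
Fitted log2 fold changes (edgeR, points) with 95% intervals (bars) of the 6 enzymes in NT liver at 8, 14 and 20 weeks and in nodules at 14 and 20 weeks, each against untreated liver of the same week. Every interval lies above 0, with points from 1.12 for Ephx1 in DEN20NT to 12.61 for Aldh3a1 in DEN20T, and Akr1b10 has no value at 8 weeks because it was too low to be tested.

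Whether the NT response grew from 8 to 14 weeks was tested as the difference of the differences, (DEN14NT - NOD14) against (DEN08NT - NOD08). It was called for 3 of 6 enzymes (edgeR, adjusted p of at most 0.05), all larger at 14 weeks, where 4.16% of 11219 genes were called in that direction. The response of Gstp1 was larger by 3.63 ± 0.73 on the log2 scale (adjusted p = 0.0124), that of Ggt1 by 3.97 ± 0.71 (adjusted p = 0.007) and that of Akr7a3 by 2.10 ± 0.54 (adjusted p = 0.0294). The Akr7a3 call was lost on leaving out any of 10 of the 16 rats, with adjusted p up to 0.0712, and with all 8 groups in the fit (2.06, adjusted p = 0.052). For Aldh3a1 the value was 7.14 ± 2.98 (adjusted p = 0.146), for Akr1b10 5.03 ± 2.76 (adjusted p = 0.258) and for Ephx1 0.73 ± 0.27 (adjusted p = 0.0936). Rat F06, the lowest DEN14NT liver for 6 of 6 enzymes, decided these calls in part: without it Aldh3a1 (7.50, adjusted p = 0.0159) and Ephx1 (0.91, adjusted p = 0.0077) were called as well. With all rats kept, DESeq2 called Aldh3a1 (7.32, adjusted p = 3.69e-05) and Akr1b10 (5.13, adjusted p = 0.023).

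After the 6 weeks without injections the fitted NT response minus that of 14 weeks was negative for 6 of 6 enzymes. However, no enzyme was called by edgeR, where 0.373% of 11245 genes were called lower. At an unadjusted p under 0.05 were 1 of the 6 enzymes and 1912 of all genes. DESeq2 called 1 of 6, and its share over all genes was not computed. Ephx1 had the lowest adjusted p (-0.91 ± 0.27 on the log2 scale, adjusted p = 0.12), and without F06 it was -1.08 (adjusted p = 0.0141). Akr1b10 had the largest value, -2.34 ± 2.14 (adjusted p = 0.612), which was -5.06 without control rat H09. For Gstp1, Ggt1 and Akr7a3 the values were -0.54 ± 0.55, -0.83 ± 0.96 and -0.93 ± 0.56. That of Aldh3a1 was -0.38 ± 5.96, where the SE is rough because the controls hold only a few counts. It carries no direction, and it turned positive without rat H13 (0.65) or H22 (0.20). In nodules no enzyme was called different in its response between 20 and 14 weeks (0 of 6 by edgeR, at an unadjusted p under 0.05 and by DESeq2, where 0.00862% of 11607 genes were called higher and 0.0775% lower), with values from -1.56 ± 1.91 for Akr1b10 to 0.82 ± 3.37 for Aldh3a1 and 0.17 ± 0.37 for Gstp1. The Akr1b10 value was -4.58 without control rat H09, that of Aldh3a1 1.87 without control rat H13, and those of Gstp1 and Ggt1 were -0.0286 and -0.14 without rat H28.

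Nodules were next compared with the NT liver of the same rats. With the groups treated as independent, 0 of 6 enzymes were called at 14 weeks and 0 of 6 at 20 weeks, and 0% of all genes were in either week by edgeR. At an unadjusted p under 0.05 were 1348 and 2767 genes, with 0 and 6 of the enzymes among them. DESeq2 called 0 and 4 of the enzymes, and its share over all genes was not computed. With the rat as replicate block, 5 of 6 enzymes were called higher in DEN20T than in DEN20NT, where 9.21% of 11546 genes were, and 0 of 6 at 14 weeks, where 0% of 11466 genes were (2518 genes and 4 of the enzymes at an unadjusted p under 0.05). The blocked log2 fold changes at 20 weeks were 1.47 ± 0.16 for Gstp1 (adjusted p = 5.23e-05), 1.88 ± 0.10 for Ggt1 (adjusted p = 1.05e-07), 0.96 ± 0.15 for Akr7a3 (adjusted p = 0.000709), 1.45 ± 0.15 for Akr1b10 (adjusted p = 3.37e-05) and 0.57 ± 0.13 for Ephx1 (adjusted p = 0.00566). Aldh3a1 had the largest value, 2.06 ± 0.49, and missed the threshold (adjusted p = 0.0551). Without rat H28, in which nodule 1 was below its own NT liver, it was 2.51 (adjusted p = 0.00243). It also passed with RLE scaling (2.07, adjusted p = 0.0441) and with nodule 2 alone (1.98, adjusted p = 0.0141), and not with nodule 1 alone (1.37, adjusted p = 0.284). With nodule 1 alone Akr1b10 lost its blocked call (0.67, adjusted p = 0.263), and with nodule 2 alone Ephx1 did (0.65, adjusted p = 0.0518).

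At 14 weeks the blocked values were 0.89 for Gstp1 (95% interval 0.35 to 1.44), 0.91 for Ggt1 (0.41 to 1.41), 0.87 for Aldh3a1 (0.068 to 1.68), 0.51 for Akr7a3 (0.23 to 0.78), 0.55 for Akr1b10 (-0.065 to 1.17) and 0.13 for Ephx1 (-0.076 to 0.34), with adjusted p from 0.167 to 0.366. With nodule 2 alone the value of Aldh3a1 was 0.28 and that of Akr1b10 -0.0440. Without rat F06 the Gstp1 value was 0.62 and was called (adjusted p = 0.00339). The difference between the weeks in the step from NT liver to nodule was tested in the same blocked way. It was called for 0 of 6 enzymes, where 0.45% of 11781 genes were called higher. At an unadjusted p under 0.05 were 3 of the enzymes and 1574 of all genes. The values ran from 0.45 ± 0.15 for Ephx1 to 1.2 ± 0.55 for Aldh3a1. A call at 20 weeks and none at 14 is therefore not shown to be a difference between the weeks.

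Single nodules gave the same picture with a wide spread. Gstp1, Ggt1 and Akr7a3 were above the NT liver of their own rat in 8 of 8 nodules at 14 weeks and in 8 of 8 at 20 weeks. Ephx1 was above it in 6 of 8 and 8 of 8, Aldh3a1 in 7 of 8 and 7 of 8, and Akr1b10 in 6 of 8 and 7 of 8. For Gstp1 the ratio to the own liver ran from 1.2 to 4.52 at 14 weeks (median 1.67) and from 1.38 to 5.54 at 20 weeks (median 2.94), and the highest ratio of each week belonged to a rat numbered F, F06 and F03. For Ggt1 it ran from 1.04 to 3.93 and from 1.79 to 5.57.

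The largest fold between the nodules of a rat was in Aldh3a1. Rat H25 had 212 CPM in nodule 1 and 24.3 in nodule 2, a fold of 8.75, over an NT level of 10.8 CPM. Rat H28 had 76.1 and 349 CPM over an NT level of 132, and rat H23 had 268 and 59.6 CPM over 51.2. Over the 8 nodules of week 20 Aldh3a1 spanned 26.1-fold, against 5.88-fold for Gstp1, 6.70-fold for Ggt1, 7.42-fold for Akr1b10, 3.32-fold for Akr7a3 and 2.01-fold for Ephx1. In Akr1b10 the nodules of H28 had 1.11 and 7.16 CPM, a fold of 6.43 and larger than in Aldh3a1, and at 14 weeks the median fold between the nodules of a rat was 1.84 for Akr1b10 and 1.68 for Aldh3a1. In Ephx1 no pair differed by more than 1.27-fold. Nodule 2 of H25 was the lowest DEN20T library for 5 of 6 enzymes and nodule 2 of H28 the highest for 4 of 6, while at 14 weeks nodule 2 of F06 was lowest for 5 of 6.

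**Figure D3:**
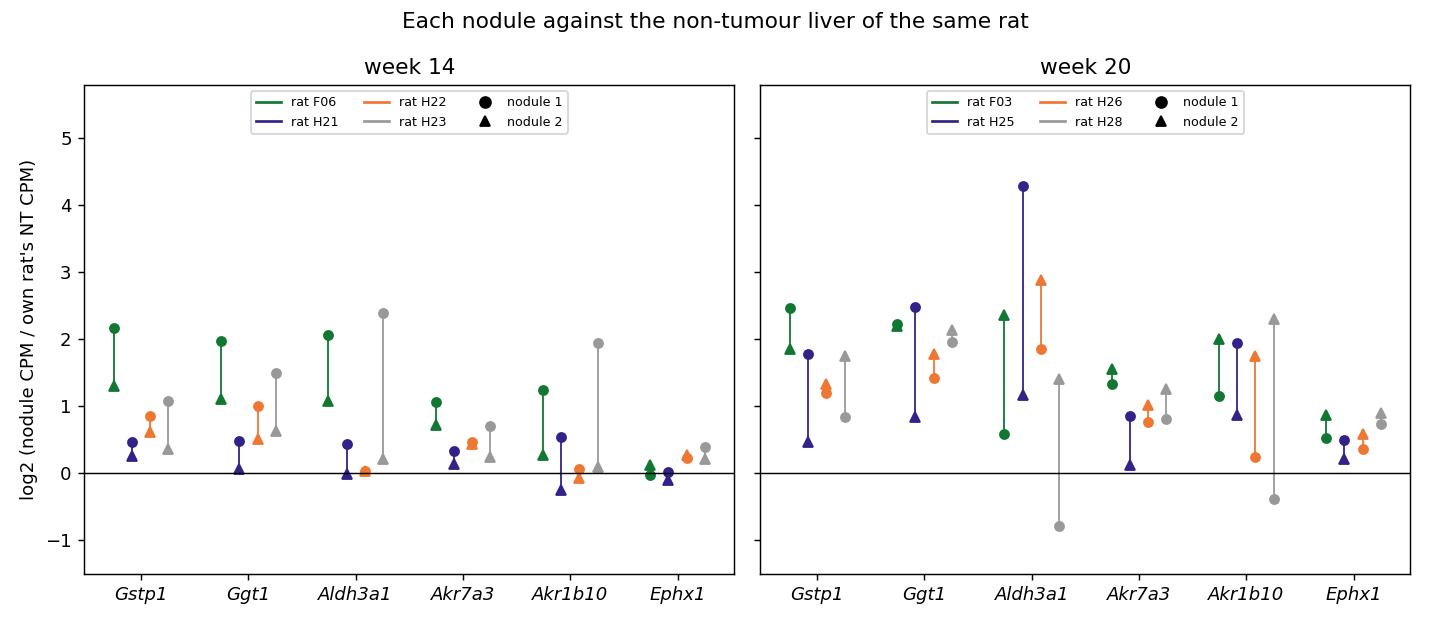
log2 ratio of the CPM of each nodule to that of the NT liver of the same rat, for the 6 enzymes at 14 (left) and 20 (right) weeks; circles are nodule 1, triangles nodule 2, and lines join the nodules of a rat. Gstp1, Ggt1 and Akr7a3 lie above 0 in 16 of 16 nodules, and Aldh3a1 and Akr1b10 have the longest lines.

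Markers of some other cell types differed between the groups as well. The summed CPM of 9 counted cholangiocyte markers (Krt19, Epcam, Sox9 and others, which mark bile duct cells) was 46.7 to 59.9 over the NOD groups, 58.0 to 68.8 in DEN08NT, 68.6 to 120 in DEN14NT, 60.9 to 88.4 in DEN20NT, 97.9 to 176 in DEN14T and 75.5 to 242 in DEN20T. The markers called higher were 7 of the 8 tested in DEN14NT, where 13.1% of all genes were, and 7 of 8 in DEN20T, where 23.6% were and 1 of the 8 was called lower, and none was at 0 in all libraries of a group. In DEN08NT 1 of the 8 tested was called higher, in DEN20NT 5 of 8 and in DEN14T 7 of 8. Their lowest NT library at 14 weeks was F06 (68.6 CPM), and their lowest and highest DEN20T libraries were nodule 2 of H25 and nodule 2 of H28, as for most of the enzymes. The summed CPM of 8 hepatocyte markers, albumin among them, had a median of 259287 in NOD08, 256916 in NOD14 and 251103 in NOD20, against 234055 in DEN08NT, 161306 in DEN14NT, 197645 in DEN20NT, 138555 in DEN14T and 155779 in DEN20T. Of these 8, 0 were called higher and 1 lower in DEN14NT, and 1 higher and 6 lower in both DEN14T and DEN20T, where 15.2% of all genes were called lower in either nodule group. Their lowest library was nodule 2 of H28 (94830 CPM), the highest DEN20T library for 4 of 6 enzymes. The 8 stellate cell and fibroblast markers had medians of 235 CPM in NOD14 and 463 in DEN14NT, and of 202 in NOD20 and 330 in DEN20T, with 4 called higher in DEN08NT, 5 in DEN14NT, 1 in DEN20NT and 6 in each nodule group. The 6 counted endothelial ones had medians of 107 and 204 CPM at 14 weeks and 103 and 187 CPM at 20 weeks in the same groups, with 3 called higher in DEN14NT, 4 in each nodule group and 0 in the other NT groups. Kupffer cell and macrophage markers were at 462 and 429 CPM and at 449 and 475 CPM, with 1 of 8 called higher in DEN14T, 2 in DEN20T and 0 in NT liver. Lymphocyte markers were at 13.9 and 22.3 CPM and at 11.8 and 22.9 CPM, with 4 of 7 tested called higher in DEN08NT, 0 of 5 in DEN14NT, 0 of 6 in DEN20NT, 4 of 7 in DEN14T and 3 of 7 in DEN20T. None of the markers in these 4 lists was called lower than in untreated liver. Of all genes, 7.29% were called higher in DEN08NT, 4.89% in DEN20NT and 23.9% in DEN14T, beside the 13.1% and 23.6% given above, and the Kupffer cell and macrophage counts in nodules lie at or below the level these shares would give, to the nearest marker. The NT liver of F06 had 953 CPM of Kupffer cell and macrophage markers, against 361 to 475 in the other DEN14NT livers, and 39.4 CPM of lymphocyte markers, against 20.6 to 22.8. The part of these cell types in the enzymes' levels was not tested.

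Genes with related roles were read from 7 lists, in DEN14NT and in DEN20T against their controls. Calls lower took 2.1% and 15.2% of all genes in these comparisons, beside 13.1% and 23.6% higher. Of 8 further marker genes of foci, 5 were called higher and 0 lower in DEN14NT, and 6 higher and 2 lower in DEN20T. Gpx2, a glutathione peroxidase, rose by 6.02 ± 0.58 and 6.45 ± 0.40 on the log2 scale, Abcb1b, a drug efflux pump, by 5.45 ± 0.17 in DEN14NT, and Nqo1, a quinone reductase, by 4.14 ± 0.39 in DEN20T. G6pc, glucose-6-phosphatase, whose loss is itself a classical sign of foci, fell by 1.61 and Gjb1, a gap junction protein, fell by 1.02 in DEN20T. In DEN14NT neither was called, with G6pc at -0.76 (edgeR, adjusted p = 0.372) and Gjb1 at -0.96 (adjusted p = 1.92e-05). Gjb1 missed only the fold threshold.

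Of 18 NRF2 targets, 9 were called higher and 0 lower in DEN14NT, and 17 higher and 1 lower in DEN20T, with medians of 1.14 and 1.59 on the log2 scale against 0.020 and 0.0070 over all genes. Slc7a11, the cystine importer that feeds glutathione synthesis, rose by 9.53 ± 1.15 and 11.11 ± 0.67, and Abcc3, a transporter that exports conjugates, by 5.25 ± 0.43 and 5.65 ± 0.27. Slc7a11 had a mean of 0.102 CPM over untreated livers, so the size of its rise depends on the prior count, as for Aldh3a1. The exception was Me1, malic enzyme, which fell by 0.99 in DEN20T. In DEN14NT it was at -0.90 (edgeR, adjusted p = 0.000424) and missed only the fold threshold. Of the 12 genes of glutathione synthesis and mercapturate formation, counting Ggt1, 5 and 7 were called higher and 0 and 2 lower. Both subunits of glutamate-cysteine ligase were among them, Gclm at 2.62 ± 0.23 in DEN20T and Gclc at 2.38 ± 0.43 in DEN14NT. Ggct and Oplah, which handle γ-glutamyl products and 5-oxoproline, fell by 0.56 and 0.53 in DEN20T. In DEN14NT they were at -0.73 and -0.48 (edgeR, adjusted p = 4.26e-05 and 0.000962) and missed only the fold threshold.

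The AhR targets split. Counting Aldh3a1, 4 of the 5 tested were called higher and 1 lower in both comparisons. Cyp1a1 rose by 4.40 ± 0.35 in DEN14NT and 2.16 ± 0.29 in DEN20T, whereas Cyp1a2, the P450 that AhR ligands also induce, fell by 1.40 and 1.84. Of 12 targets of the nuclear receptors CAR and PXR, Ephx1 was the 1 called higher in both, and 1 and 8 were called lower. The falls included Cyp3a9 (by 1.79 in DEN14NT and 2.29 in DEN20T) and Cyp3a23/3a1 (by 2.14 in DEN20T), P450s that oxidize many drugs. Por, the reductase that serves the P450s, was at 0.39 and 0.49 (edgeR, adjusted p = 0.0078 and 0.0202). It was not called because it missed the fold threshold of each comparison.

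Relatives within the enzymes' own families did not all follow. Of the 37 tested, 9 were called higher and 0 lower in DEN14NT, and 16 higher and 9 lower in DEN20T, with medians of 0.21 and 0.30. The aldose reductase relative Akr1b8 rose by 7.25 ± 0.77 and 7.98 ± 0.40 and the Alpha-class transferase Gsta3 by 5.34 ± 0.33 and 4.27 ± 0.42, while the hydroxysteroid dehydrogenases Akr1c2 and Akr1c14 fell by 1.62 and 1.18 in DEN20T. In DEN14NT the Mu-class transferase Gstm7 and the Zeta-class Gstz1 were lowest, at -0.99 and -0.80 (edgeR, adjusted p = 0.000121 and 0.000185). They were not called because they missed the fold threshold. Akr1b8 and Akr1b10 are close in sequence, and pairs that matched several places were not counted, so the level of either may be understated. Of 17 regulators tested, 4 were called higher and 0 lower in DEN14NT, and 7 higher and 3 lower in DEN20T. Maff, a small Maf protein that pairs with NRF2, rose by 3.89 ± 0.36 and 5.10 ± 0.25, the AP-1 subunits Fos by 1.96 ± 0.47 in DEN14NT and Fosl2 by 2.78 ± 0.42 in DEN20T, and Cebpa and Arnt fell by 1.08 and 1.01 in DEN20T. Fos was low, with means of 0.279 CPM in NOD14 and 1.09 in DEN14NT. Untreated NOD08 livers had 1.76 ± 3.04 CPM of Fos (mean ± SD), above the DEN14NT mean.

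**Figure D4:**
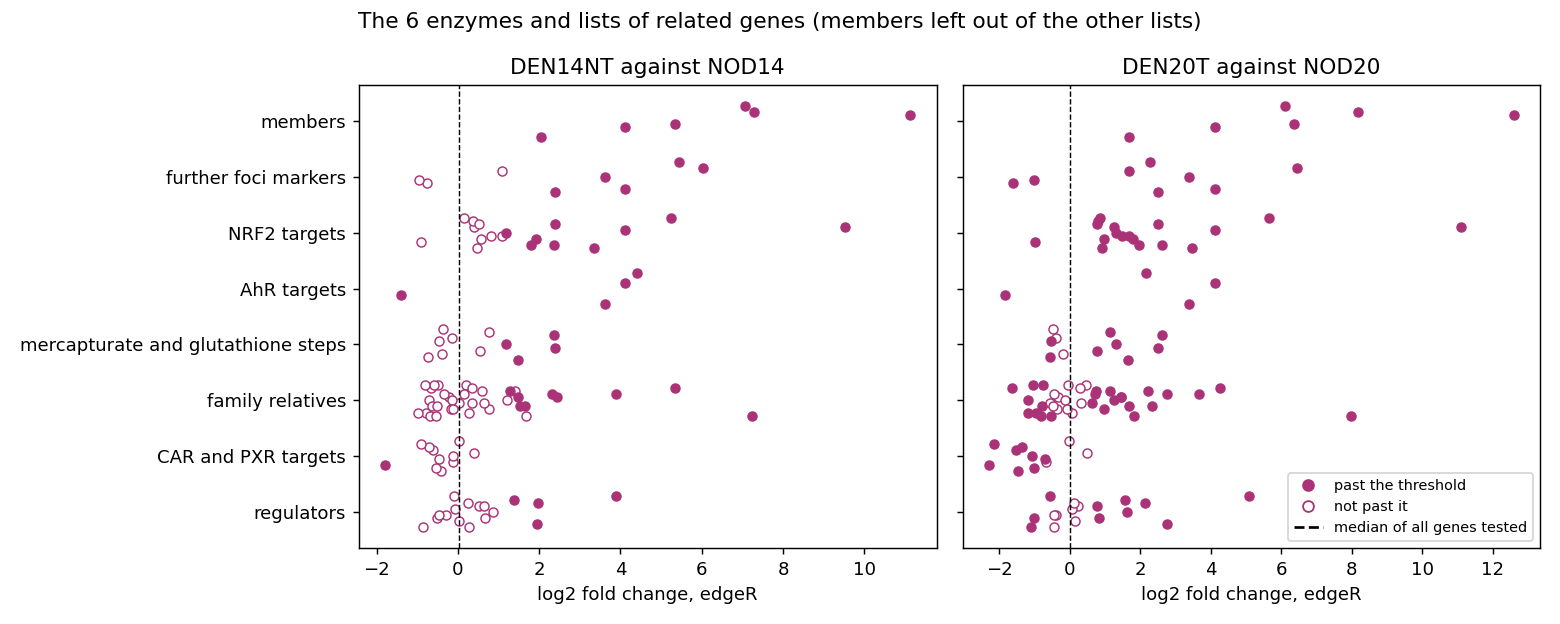
Fitted log2 fold changes (edgeR) of the 6 enzymes and of the tested genes of 7 lists in DEN14NT (left) and DEN20T (right) against untreated liver, with enzymes left out of the other lists; filled points passed the threshold of the comparison, open points did not, and the dashed line is the median of all genes tested. The 6 enzymes are all filled and lie right of the line, 8 CAR and PXR targets fell in DEN20T, and the family relatives lie on both sides.

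Over the 40 libraries the log2 CPM of the enzymes correlated with each other at Pearson r of 0.93 to 0.98. Since the groups differ so much, r was also computed on deviations from the group means, where it ran from 0.44 (Gstp1 with Akr1b10) to 0.94 (Akr7a3 with Ephx1). These are descriptions over libraries that share rats, controls and scaling. Among 10147 other genes with a mean of at least 1 CPM, the profile most like Gstp1 was that of Abcc3 (r = 0.995, 0.889 within groups), followed by Pcp4 (0.992) and Defb1 (0.991). Abcc3 rose from a mean of 2.44 CPM over untreated livers to 109 CPM over nodules. Akr1b8 was among the 3 most alike for Ggt1 (0.988), Aldh3a1 (0.982) and Akr7a3 (0.986). Next to Ggt1 stood Vsx1 (0.990) and Ccdc92 (0.990), next to Aldh3a1 Slc7a11 (0.986), and next to Akr7a3 Ccdc92 (0.983) and Mmd (0.981). The profiles most like Ephx1 were those of Srxn1 (0.977), Nqo1 (0.973) and Ugt1a6 (0.969), with 0.914, 0.902 and 0.902 within groups. For Akr1b10, with its few counts, they were RT1-M4 (0.970), Elfn1 (0.965) and Sox4 (0.965).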

How the data were processed

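Strand-specific poly(A) RNA-seq libraries of rat liver and liver nodules were compared. The deposited files, 1 for each library, give unnormalized counts of read pairs per gene, which the submitters' processing notes describe as STAR 2.7.1a alignments to rn6 counted on the reverse strand with HTSeq. The counting summary lines were left out of library sizes. Of all pairs in the files, 21.5% to 34.5% were assigned to no gene by the exon-based, strand-specific counting and 7.96% to 16.3% were not uniquely placed, so a gene with near-identical copies can be undercounted.

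Nodules of the same rat were added together; after filterByExpr and TMM scaling the groups named were fitted on all genes with the 2-sided quasi-likelihood F test of edgeR 4.0.16 (R 4.3.3), adjusted by Benjamini-Hochberg. DESeq2 1.42.0 was an alternative and was read for the enzymes only, so its counts have no share of all genes beside them. Calls in NT liver needed a log2 fold change of 1 either way and an adjusted p up to 0.01, those in nodules 0.5 and 0.05, and differences between weeks at an adjusted p of 0.05. CPM values are TMM-scaled; a rat with 2 nodules gave their mean. Alternatives covered scaling, filter, thresholds, single nodules, left-out rats and the rat as replicate block. NT liver and nodules carry the number of the same animal, and their deviations from the group means correlated at 0.37 to 0.54 in all 8 rats. The genes named besides the 6 enzymes were, for each enzyme, the 3 most alike over all libraries (1 of them is not reported here), and in each list of related genes up to 2 that rose most and up to 2 that fell most or were lowest. Cell type markers are named only as examples of their lists. The members and lists were chosen with earlier results of these data known. Promoter windows were matched to the enzymes by symbol for 5 of 6.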

Additional observations from a re-analysis of the deposited data

Results flagged for a closer look

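Among 48 sets of libraries (6 enzymes in 8 groups), 5 held a library set apart from the rest of its group by Dixon's criterion, where chance flags about 1 in 20 groups. That rate is for independent libraries and may not hold in the nodule groups, where nodules share rats. Gstp1 was at 318 CPM in the NT liver of rat H18 at 8 weeks, with the next at 95.5 CPM. Akr1b10 was at 11.2 CPM in nodule 1 of rat H23 at 14 weeks, with the next at 5.45 CPM. The other 3 rest on a few counts: Akr1b10 at 0.213 CPM (7 counts) in the NT liver of F10 at 8 weeks, Akr1b10 at 0.0729 CPM (2 counts) in NOD14 rat H09 with 0 in the other libraries of its group, and Aldh3a1 at 0 in NOD14 rat H10 with 1 count in each of the others.

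The response of NT liver differed between 14 and 8 weeks by the interaction test (edgeR, adjusted p of at most 0.05) for Gstp1 (3.63 on the log2 scale), Ggt1 (3.97) and Akr7a3 (2.10), each larger at 14 weeks. The Akr7a3 call was lost without any of 10 of the 16 rats and with all 8 groups in the fit (2.06, adjusted p = 0.052).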

How the results depend on the processing

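Against untreated liver the number of enzymes called kept within 1.5 times the main number under every alternative run, but Ggt1 in DEN08NT lost its call with all 8 groups in the fit (1.38, adjusted p = 0.0672), as Aldh3a1 in DEN20NT did without H14, H15 or H16 (adjusted p = 0.0106 to 0.013). With the rat as replicate block the nodules against NT liver gave 5 enzymes called at 20 weeks and 0 at 14, and the difference between the weeks stayed at 0. At 20 weeks without the block, DESeq2 called 4 enzymes, all 8 groups in the fit 3 and nodule 1 alone 2, and leaving out a rat 0 to 1. For the blocked fits, chosen after seeing the data, leaving out a rat gave 0 to 1 enzymes at 14 weeks, and leaving out the rats numbered F gave 1. With nodule 1 alone Akr1b10 lost its blocked call at 20 weeks (0.67, adjusted p = 0.263) and with nodule 2 alone Ephx1 did (0.65, adjusted p = 0.0518), while Aldh3a1 gained one with nodule 2 alone, with RLE scaling and without H28. For 14 against 8 weeks in NT liver, DESeq2 called 5, the fit without the rats numbered F 5, and leaving out a rat 2 to 5. For 20 against 14 weeks in NT liver, DESeq2 and the fit without the rats numbered F called 1 each, and leaving out a rat 0 to 1. Directions turned for Akr1b10 in DEN14T against DEN14NT with nodule 2 alone (-0.0628, blocked -0.0440), for Aldh3a1 at 20 against 14 weeks in NT liver (0.65 without H13 and 0.20 without H22, range -0.88 to 0.65), and for Gstp1 and Ggt1 in nodules at 20 against 14 weeks without H28 (-0.0286 and -0.14, with ranges up to 0.40 and 0.48 over the rats left out), none of them called. Total-count scaling moved 5 of 48 group means by more than 1 SD, all in untreated groups. The cause of these changes was not tested. Depth limits Akr1b10 and Aldh3a1 in untreated liver, where libraries held 0 to 13 counts.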
